A study of Mus musculus with 12 samples.

Results

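The interferon-stimulated genes described here are 48 genes picked by symbol as known targets of interferon, and each of the 48 matched 1 Ensembl row of the 55092 features in the expression table. All 48 were among the 14676 genes tested, which reached at least 1 FPKM in at least 3 of the 12 libraries. FPKM are fragments counted on a gene, scaled to the gene's length and between libraries. RNA was sequenced from the abdominal aorta of male mice after a 7-day infusion through osmotic pumps, with 3 mice, each a separate library, in each of 4 groups. CFS and CFA were CCN2fl/fl mice, which carry a floxed Ccn2 gene and no Cre, given saline (mice 68, 69 and 70) or angiotensin II (Ang II; mice 71, 72 and 74). CSS and CSA were CCN2SMCΔ mice, which carry the same floxed gene and the tamoxifen-inducible Myh11-Cre-ERT2 transgene and are called deleted below after that label, given saline (mice 54, 55 and 56) or Ang II (mice 01, 02 and 03). Ang II was given at 500 ng/kg/min. Mice of all 4 groups had received 5 doses of tamoxifen at 8 weeks of age and a 2-week washout, so the effect of tamoxifen was shared, whereas the Cre transgene was present in the deleted mice alone and its presence cannot be told apart from the loss of Ccn2. The Myh11 promoter drives Cre in smooth muscle cells, and other cells of the wall keep Ccn2. The design asks whether the loss of Ccn2 from smooth muscle changes these genes, under saline and under Ang II, and whether Ang II changes them in each genotype.

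Interferons are secreted proteins that cells release after sensing viral or misplaced nucleic acids. Type I interferons bind the IFNAR1 and IFNAR2 receptor pair, which activates the kinases JAK1 and TYK2. These phosphorylate STAT proteins, among them STAT2, which join IRF9 and bind the interferon-stimulated response element (ISRE) in the promoters of target genes. Interferon-γ, the type II ligand, acts through IFNGR1 and IFNGR2, JAK1 and JAK2, and a STAT dimer that binds the gamma-activated site (GAS). The targets include blocks to viral entry, translation and replication, and also more sensors and transcription factors, so the response can feed itself. Nearly all nucleated cells can mount it, among them the smooth muscle, endothelial and myeloid cells of an aortic wall.

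The targeted gene, Ccn2, encodes a secreted matricellular protein (chromosome 10, 24595442 to 24598683, plus strand, mm10). It measured 709.5, 1108 and 480.1 FPKM in CFS, 436, 639.9 and 587 in CSS, 1013, 1105 and 564 in CFA and 255, 331 and 399 in CSA, in the mouse order given above, which is kept throughout. The deleted and control ranges overlapped under saline and not under Ang II. The log2 fold change of CSS against CFS was -0.40 ± 0.34 (SE, adjusted p = 1), and that of CSA against CFA was -1.41 ± 0.34 (SE, adjusted p = 0.00622), short of the fold limit of 1.5 used below. The recovered depth was 14555508 to 23102751 fragments per library. Libraries stood apart in several ways. CSA mouse 03 had the fewest fragments and differed from mice 01 and 02 with the base composition of genes, as described below. CFS mouse 69 had a summed level of 8 endothelial markers of 115 FPKM against 449 and 447 FPKM in mice 68 and 70. CFS mouse 68 and CSS mouse 55 had summed skeletal muscle markers of 153 and 244 FPKM, whereas no other library passed 5.59 FPKM. Without CFS mouse 68, CFS mouse 69 or CSS mouse 55, the calls of the 48 genes stood as with all mice in each comparison below, except that of Mx1 in the interaction without CFS mouse 68, and the medians that moved stand beside their results.

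The interferon-stimulated genes rose in Ang II-infused aortas of CCN2SMCΔ mice, against Ang II-infused controls. In CSA against CFA, limma called 45 of the 48 genes higher and 0 lower, where a call needed both an adjusted p (Benjamini-Hochberg) under 0.05 and a log2 fold change beyond 1.5 in size. Over all tested genes the same rule called 8.95% higher and 8.27% lower. The median log2 fold change of the 48 genes was 3.25, beside -0.037 over all tested genes, and single genes ranged from 0.36 to 5.65. Fold changes are on the log2(FPKM + 0.1) scale, which understates the change of genes of low level. Without the fold limit 47 genes were called higher, beside 19.5% of all tested genes. The CSA mean exceeded 10 times the CFA mean for 24 genes. The count stayed at 45 when any mouse of CFA or CSA was left out. With the fold limit inside the test (limma treat), Bst2, Eif2ak2, Samhd1, Ifitm3, Herc6, Parp9, Irf9, Ddx58, Ifi205, Ifi27l2a and Psmb8 lost the call. All 3 CSA mice lay above all 3 CFA mice for 46 of 48 genes (23.4% of tested genes) and above all 9 other mice for the same number (19.4%). The exceptions were Ifitm2 and Ifi35. None of the 48 was listed at 0 in any library, and the lowest value stood for 3 recovered fragments. The filter on low values was passed through the CSA libraries only by 8 genes, Ifit1bl1, Oas1g, Oas3, Oasl1, Mx1, Mx2, Ifi44 and Zbp1, which therefore had to be high in CSA. Of the 40 others, 37 were called higher, beside 4.54% of the 13470 genes that passed without CSA, with a median log2 fold change of 2.86 beside -0.10. In whole aorta, more cells of a type that expresses these genes and more RNA per cell cannot be told apart.

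**Figure D1:**
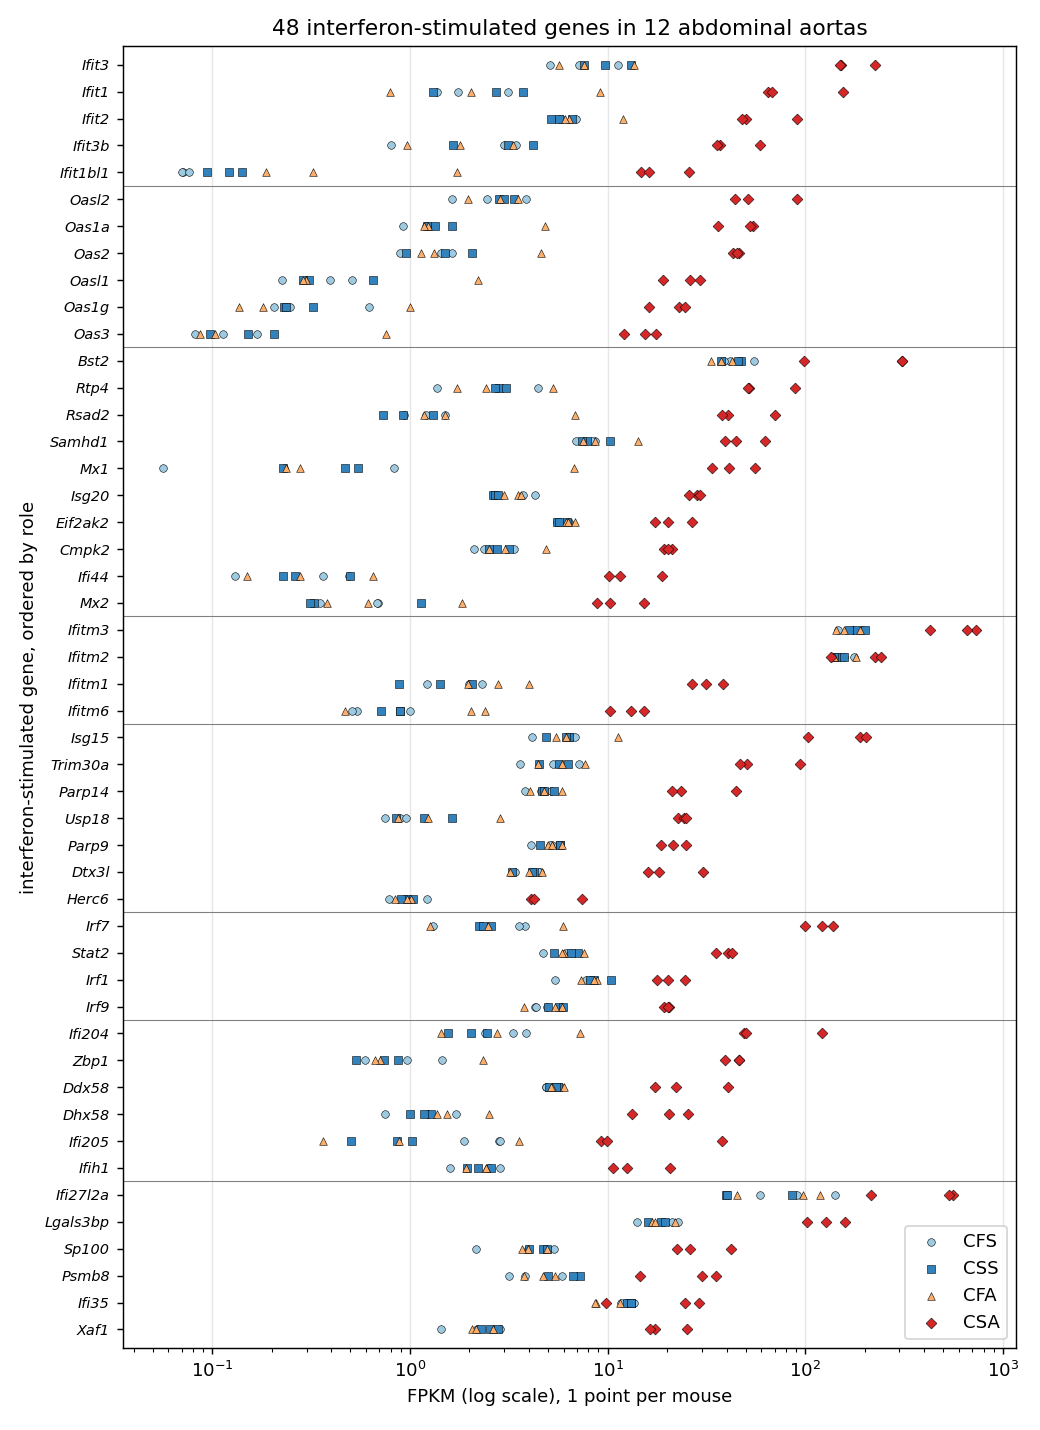
FPKM (log axis) of each of the 48 interferon-stimulated genes in each of the 12 mice, 1 point per mouse and 1 shape per group, with genes ordered by role and, within a role, by mean level. The 3 CSA mice lay to the right of the 9 others for 46 genes, and Ifitm2 and Ifi35 are the exceptions.

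Markers of leukocytes moved with these genes. Of all tested genes, 8.95% were called higher in CSA against CFA and 8.27% lower. In CSA against CFA, 9 of 10 macrophage and monocyte markers were called higher, with a summed level of 1585 to 1791 FPKM in CSA and 237 to 467 FPKM in CFA. All 9 tested neutrophil markers of 10 were higher (529.6 to 581 against 11.2 to 28.02 FPKM), and Ly6g, a defining marker of these cells, was the untested marker, listed at 0 in CSA mice 02 and 03. All 8 T cell markers were higher (25.2 to 35.1 against 0.875 to 2.77 FPKM), as were both tested NK cell markers of 7 (19.7 to 23.5 against 1.26 to 3.75 FPKM). Of 7 markers of plasmacytoid dendritic cells, a cell type known for its output of type I interferon, 5 were tested and 3 were higher (72.1 to 91.7 against 8.02 to 11.3 FPKM). Pld4 alone made up 77.9, 67.6 and 57.9 FPKM of this sum in CSA. Cox6a2 (adjusted p = 0.312 by limma) and Klk1 (adjusted p = 0.0902) were not called. Siglech, which defines those cells, measured 0.6397, 0.916 and 0.617 FPKM in CFS, 0.875, 0.829 and 0.448 in CSS, 0.841, 1.003 and 1.05 in CFA and 3.65, 4.33 and 4.82 in CSA. Of 7 B cell markers 2 were tested and 1 was higher (4.895 to 8.36 against 1.43 to 2.68 FPKM). In the other direction, 8 of 8 smooth muscle markers were lower (793 to 937 against 5466 to 8323 FPKM), as were 3 of 8 endothelial, 2 of 7 adipocyte and 5 of 5 erythrocyte markers, while 0 of 7 fibroblast and 0 of 4 tested skeletal muscle markers were called. The part of any of these cells in the change of the interferon-stimulated genes was not tested.

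The promoters of 37 of the 48 genes were in the RefSeq table used here (GRCm38.p6, 250 bases before to 50 after each start, 45 promoters). The ISRE core, GAAA followed by any 2 bases and GAAA, was searched on both strands and was in the promoters of 18 of these 37 genes (48.6%), beside 3.99% of all 27025 genes in the table. The GAS core, TTC followed by any 3 bases and GAA, was in those of 11 (29.7%) beside 9.55%, and the letters of the GAS core are their own reverse complement. Windows of the IFIT and OAS families and Isg15, which are among the genes with the largest changes, are shown with the core in place. They are followed by a window of Ifitm2, which holds the core and was not called, and of Irf1, which holds a GAS core only. Each is read 5′ to 3′ along the gene, and capitals mark the match, which reads TTTC on both sides of the 2 free bases where it lies on the opposite strand.
Ifit1 (chr19:34640765-34640814, plus): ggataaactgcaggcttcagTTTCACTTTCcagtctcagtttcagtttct
Ifit3 (chr19:34583353-34583402, plus): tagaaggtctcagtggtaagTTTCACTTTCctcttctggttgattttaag
Ifit3b (chr19:34607749-34607798, plus): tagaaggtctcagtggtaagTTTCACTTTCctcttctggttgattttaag
Oas1a (chr5:120907526-120907565, minus): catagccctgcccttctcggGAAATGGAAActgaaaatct
Oas1g (chr5:120887614-120887651, minus): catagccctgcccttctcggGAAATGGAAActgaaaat
Oas3 (chr5:120777705-120777754, minus): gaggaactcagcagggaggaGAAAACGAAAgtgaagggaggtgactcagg
Isg15 (chr4:156200861-156200910, minus): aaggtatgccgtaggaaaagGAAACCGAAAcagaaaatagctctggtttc
Ifitm2 (chr7:140955978-140956027, minus): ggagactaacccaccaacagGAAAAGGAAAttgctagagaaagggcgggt
Irf1 (chr11:53769904-53769952, plus): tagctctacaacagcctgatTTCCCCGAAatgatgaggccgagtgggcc
The windows of Ifit3 and Ifit3b are identical over their 50 bases, and those of Oas1a and Oas1g are identical up to the end of the shorter one. Between CSA and CFA, the 18 genes with the ISRE core had a median log2 fold change of 3.996 and the 19 without it of 2.78, with ranges of 0.36 to 5.65 and 1.002 to 5.42 that overlap, and no test was made of this split. The GAS core split the other way, with a median of 2.42 for the 11 genes with it and of 3.57 for the 26 without it, again untested and with overlapping ranges. Irf7 held neither core in its window, and Oasl1 and Oasl2 held neither.

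The IFIT genes encode cytosolic proteins that bind viral RNA, and all 5 lie together on chromosome 19. All 5 were called higher in CSA against CFA, and their median log2 fold change was 4.49. Ifit1, which binds RNA with an incompletely methylated cap (chr19:34640871-34650009, plus strand), measured 3.14, 1.37 and 1.75 FPKM in CFS, 1.32, 2.74 and 3.75 in CSS, 0.795, 9.17 and 2.04 in CFA and 64.7, 67.96 and 155 in CSA. The means were 4.003 ± 4.52 FPKM in CFA and 95.7 ± 50.9 FPKM in CSA (SD, n = 3 here and in all means below), a log2 fold change of 5.08 ± 0.74 (SE, adjusted p = 2.66e-04). The CSA mice lay far above CFA mouse 72, the highest of the 9 others. Ifit1bl1, a relative of Ifit1 (chr19:34592891-34601956, minus strand), measured 0.0713, 0.0705 and 0.0765 FPKM in CFS, 0.0946, 0.142 and 0.121 in CSS, 0.323, 1.74 and 0.187 in CFA and 14.9, 16.2 and 25.8 in CSA, with a log2 fold change of 4.93 ± 0.57 (SE, adjusted p = 6.10e-05). In the CFS mice these levels stood for 3 fragments each, so its ratio rests on few fragments in the low groups. Ifit3 reached the highest level of the family in CSA, 176 ± 42.5 FPKM against 8.97 ± 4.11 FPKM in CFA (4.35 ± 0.36 SE, adjusted p = 6.77e-06). Ifit3b changed by 4.49 ± 0.56 (SE, adjusted p = 1.02e-04), and Ifit2, the family member with the smallest change, by 2.94 ± 0.29 (SE, adjusted p = 1.93e-05). Of the windows of 100 bases in Ifit3 and Ifit3b, 31.7% and 27.4% also occur in another gene, so their separate levels are uncertain.

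The OAS genes encode synthases of short linked oligoadenylates, second messengers made in response to double-stranded RNA, or OAS-like proteins. The 6 genes lie on chromosome 5. All 6 were called higher, and the smallest log2 fold change among them was 4.39 (Oasl2). Oas1g (chr5:120876142-120887613, minus strand) measured 0.624, 0.206 and 0.248 FPKM in CFS, 0.22996, 0.323 and 0.236 in CSS, 0.137, 1.01 and 0.181 in CFA and 23.1, 24.6 and 16.2 in CSA. Its log2 fold change, 5.65 ± 0.54 (SE, adjusted p = 1.72e-05), was the largest of the 48, although 40.9% of the windows of Oas1a and 38.2% of those of Oas1g are shared with another gene. Oas3, the largest synthase (chr5:120753098-120777661, minus strand), measured 0.168, 0.113 and 0.08202 FPKM in CFS, 0.152, 0.206 and 0.0975 in CSS, 0.104, 0.753 and 0.0868 in CFA and 17.6, 15.5 and 12.1 in CSA, a log2 fold change of 5.55 ± 0.53 (SE, adjusted p = 1.64e-05). Over both genes the 9 other mice ranged from 0.0820 to 1.01 FPKM and the CSA mice from 12.1 to 24.6 FPKM. Oas1g and Oas3 passed the filter on low values through the CSA libraries only, so both had to be high in CSA. Oas1a went from 2.41 ± 2.07 FPKM in CFA to 47.7 ± 9.93 FPKM in CSA and Oas2 from 2.36 ± 1.96 to 44.9 ± 1.39 FPKM. Oasl1, which limits the translation of Irf7 in mice, changed by 5.11 ± 0.61 (SE, adjusted p = 6.93e-05), and Oasl2, an OAS-like protein, by 4.39 ± 0.34 (SE, adjusted p = 4.46e-06).

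Among the MX proteins and other blocks to viral growth, 10 of 10 genes were called higher, with log2 fold changes from 1.70 to 5.49. Mx1, a GTPase that traps viral ribonucleoproteins (chr16:97447035-97462907, minus strand), measured 0.829, 0.0565 and 0.2298 FPKM in CFS, 0.227, 0.4704 and 0.546 in CSS, 0.279, 6.75 and 0.237 in CFA and 41.03, 33.97 and 55.98 in CSA. Its log2 fold change was 5.49 ± 1.02 (SE, adjusted p = 0.00133), the least precise of the 48, and CFA mouse 72 stood far above CFA mice 71 and 74. Ifi44 (chr3:151730922-151749960, minus strand) measured 0.362, 0.131 and 0.492 FPKM in CFS, 0.5004, 0.229 and 0.262 in CSS, 0.1498, 0.654 and 0.277 in CFA and 11.5, 10.2 and 18.8 in CSA, with a log2 fold change of 4.99 ± 0.49 (SE, adjusted p = 1.91e-05). The ranges of CSA and of the other groups did not overlap for either gene. Mx1 and Ifi44 passed the filter on low values through the CSA libraries only, so both had to be high in CSA. Rtp4, a chaperone of membrane receptors, rose from 3.16 ± 1.897 to 63.9 ± 21.5 FPKM, and Rsad2 (viperin), which makes a chain-terminating nucleotide, from 3.18 ± 3.198 to 49.6 ± 18.1 FPKM. Mx2, annotated as a polymorphic pseudogene, changed by 3.69 ± 0.55 (SE, adjusted p = 3.32e-04). Isg20, an exonuclease of RNA, changed by 3.01 ± 0.16 (SE, adjusted p = 6.51e-07), with 3.38 ± 0.345 FPKM in CFA and 27.8 ± 1.74 FPKM in CSA. Cmpk2, a mitochondrial nucleotide kinase whose gene neighbours Rsad2, changed by 2.57 ± 0.23 (SE, adjusted p = 1.25e-05). Bst2 (tetherin), which holds budding virus at the cell surface, had the highest level of the group, 239 ± 122 FPKM in CSA against 37.9 ± 4.797 FPKM in CFA. Its values in CSA were 309, 310.4 and 98.9 FPKM, so mouse 03 lay well below the others and still above the 9 mice outside CSA. Samhd1, which breaks down deoxynucleotides, changed by 2.28 ± 0.25 (SE, adjusted p = 3.91e-05), and Eif2ak2 (PKR), which halts translation on double-stranded RNA, by 1.70 ± 0.15 (SE, adjusted p = 1.01e-05).

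The IFITM genes encode small membrane proteins that keep enveloped viruses from fusing, and 3 of 4 were called higher. Ifitm1 (chr7:140967221-140969825, plus strand) measured 2.32, 2.003 and 1.22 FPKM in CFS, 0.885, 2.07 and 1.43 in CSS, 1.97, 4.01 and 2.803 in CFA and 31.6, 38.3 and 26.6 in CSA, with a log2 fold change of 3.45 ± 0.34 (SE, adjusted p = 1.97e-05). Ifitm6 (chr7:141015699-141017924, minus strand) measured 0.538, 1.004 and 0.513 FPKM in CFS, 0.892, 0.894 and 0.711 in CSS, 2.03, 2.395 and 0.469 in CFA and 13.2, 10.3 and 15.3 in CSA, with a log2 fold change of 3.15 ± 0.48 (SE, adjusted p = 3.67e-04). Both genes separated CSA from the rest without overlap. Ifitm3 was the most abundant of the 48 genes, at 163 ± 23.9 FPKM in CFA and 604 ± 158 FPKM in CSA (1.86 ± 0.21 SE, adjusted p = 4.41e-05). Ifitm2, its neighbour (chr7:140954837-140955987, minus strand), measured 177, 156 and 149 FPKM in CFS, 145, 157 and 139.8 in CSS, 180.04, 138 and 139.6 in CFA and 225, 242 and 135 in CSA. CSA mouse 03 had the lowest of these values and CSA mice 01 and 02 the highest, so the groups overlapped and the log2 fold change of 0.36 ± 0.21 (SE, adjusted p = 0.193) was not called. Of the exonic bases of Ifitm2, 40.9% overlap another gene, which leaves its level uncertain. Ifitm2 and Ifitm3 were at like levels in the 9 mice outside CSA, from 138 to 180.04 and from 143 to 201 FPKM, and differed in CSA, where Ifitm3 measured 727, 659 and 426 FPKM.

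ISG15 is a ubiquitin-like protein that is joined to other proteins after interferon, and all 7 genes of its machinery and of related ubiquitin and ADP-ribose modifiers were called higher, with a median log2 fold change of 2.50. Isg15 (chr4:156199424-156200818, minus strand) measured 6.58, 4.17 and 6.83 FPKM in CFS, 4.91, 6.35 and 6.14 in CSS, 5.46, 11.3 and 6.18 in CFA and 189, 203 and 103 in CSA, a log2 fold change of 4.43 ± 0.32 (SE, adjusted p = 3.19e-06). Usp18, which removes ISG15 and dampens receptor signaling (chr6:121245906-121270917, plus strand), measured 0.892, 0.958 and 0.748 FPKM in CFS, 0.849, 1.18 and 1.63 in CSS, 0.872, 2.85 and 1.23 in CFA and 22.7, 24.3 and 25.05 in CSA, a log2 fold change of 3.94 ± 0.35 (SE, adjusted p = 1.14e-05). For both genes the CSA mice stood apart from the rest, and CFA mouse 72 was the highest of the other 9. Herc6, the ligase that joins ISG15 to proteins in mice, changed by 2.32 ± 0.25 (SE, adjusted p = 3.76e-05). Dtx3l and Parp9, a ubiquitin ligase and its partner, changed by 2.37 ± 0.24 (SE, adjusted p = 2.21e-05) and by 1.99 ± 0.16 (SE, adjusted p = 4.79e-06). Parp14, an ADP-ribosyl transferase, changed by 2.50 ± 0.26 (SE, adjusted p = 2.55e-05), and Trim30a, a mouse TRIM protein that limits inflammatory signaling, by 3.35 ± 0.32 (SE, adjusted p = 1.51e-05). Parts of Herc6 recur in another gene (20.9% of its windows), so its level is less certain.

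Of the 4 transcription factors of the response, 3 were called higher. Irf7, the factor that amplifies type I interferon production (chr7:141262706-141266481, minus strand), measured 3.81, 1.32 and 3.56 FPKM in CFS, 2.24, 2.34 and 2.58 in CSS, 1.26, 5.98 and 2.47 in CFA and 138, 121 and 99.9 in CSA. Its mean was 3.24 ± 2.45 FPKM in CFA and 119.7 ± 19.1 FPKM in CSA, a log2 fold change of 5.42 ± 0.49 (SE, adjusted p = 1.25e-05). Stat2 (chr10:128270559-128292849, plus strand), which acts with IRF9, measured 6.199, 4.6996 and 6.57 FPKM in CFS, 5.38, 7.07 and 6.53 in CSS, 6.03, 7.63 and 5.87 in CFA and 40.7, 35.3 and 42.5 in CSA, with a log2 fold change of 2.59 ± 0.17 (SE, adjusted p = 1.49e-06). Irf9 (chr14:55603571-55610030, plus strand), the DNA-binding part of that complex, measured 4.92, 4.297 and 4.35 FPKM in CFS, 5.02, 5.69 and 5.94 in CSS, 3.801, 5.89 and 5.404 in CFA and 20.5, 19.4 and 20.2 in CSA, with a log2 fold change of 1.99 ± 0.16 (SE, adjusted p = 5.03e-06). The CSA values of Irf9 and Stat2 were close together and above all others. Irf1, a factor induced most by interferon-γ (chr11:53770014-53778374, plus strand), measured 7.797, 5.405 and 8.12 FPKM in CFS, 10.4, 8.52 and 8.15 in CSS, 8.83, 7.32 and 8.57 in CFA and 24.6, 20.1 and 17.9 in CSA. Its CSA values also lay above all others, but its log2 fold change of 1.32 ± 0.18 (SE, adjusted p = 2.00e-04) fell short of the fold limit. Differences between the fold changes of these 4 genes were not tested.

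Among the sensors of nucleic acid, 6 of 6 genes were called higher. Zbp1, which binds left-handed nucleic acid and can start cell death (chr2:173206612-173218923, minus strand), measured 1.46, 0.591 and 0.969 FPKM in CFS, 0.534, 0.872 and 0.742 in CSS, 0.702, 2.35 and 0.668 in CFA and 46.3, 39.2 and 46.1 in CSA, a log2 fold change of 5.26 ± 0.43 (SE, adjusted p = 6.13e-06). Ifi204, a DNA-binding protein of the p200 family (chr1:173747293-173766943, minus strand), measured 3.34, 2.402 and 3.86 FPKM in CFS, 2.46, 2.03 and 1.56 in CSS, 1.44, 7.24 and 2.77 in CFA and 48.9, 50.3 and 122 in CSA, a log2 fold change of 4.39 ± 0.51 (SE, adjusted p = 6.29e-05). CSA mouse 03 was well above mice 01 and 02 for Ifi204, and the 3 mice were close together for Zbp1. The cytosolic RNA sensors had smaller fold changes, and this difference was not tested. Ddx58 (RIG-I; chr4:40203773-40239828, minus strand) measured 5.83, 4.898 and 4.86 FPKM in CFS, 5.06, 5.59 and 5.48 in CSS, 5.25, 6.02 and 5.17 in CFA and 22.1, 17.4 and 40.7 in CSA, a log2 fold change of 2.18 ± 0.25 (SE, adjusted p = 5.44e-05). Ifih1 (MDA5; chr2:62595798-62646255, minus strand) measured 2.52, 1.597 and 2.85 FPKM in CFS, 2.201, 2.58 and 1.95 in CSS, 1.93, 2.42 and 2.42 in CFA and 12.6, 10.6 and 20.8 in CSA, a log2 fold change of 2.59 ± 0.27 (SE, adjusted p = 2.71e-05). Dhx58 (LGP2; chr11:100694884-100704271, minus strand), which modulates the other pair, measured 1.703, 0.752 and 1.24 FPKM in CFS, 1.003, 1.29 and 1.18 in CSS, 1.37, 2.51 and 1.54 in CFA and 25.4, 20.4 and 13.3 in CSA, a log2 fold change of 3.37 ± 0.32 (SE, adjusted p = 1.71e-05). All CSA mice exceeded all other mice for these 3 sensors. Ifi205, a further p200 gene, went from 1.599 ± 1.71 to 19.03 ± 16.3 FPKM (3.69 ± 0.71 SE, adjusted p = 0.00164), where CSA mouse 03 alone measured 37.9 FPKM and mice 01 and 02 measured 9.28 and 9.94 FPKM.

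Of the remaining 6 genes, 5 were called higher. Xaf1, which promotes apoptosis (chr11:72301629-72313733, plus strand), measured 2.86, 1.44 and 2.19 FPKM in CFS, 2.55, 2.78 and 2.28 in CSS, 2.07, 2.17 and 2.65 in CFA and 17.5, 16.5 and 25.3 in CSA, a log2 fold change of 3.03 ± 0.24 (SE, adjusted p = 5.45e-06). Sp100, a protein of nuclear bodies (chr1:85649988-85709998, plus strand), measured 5.38, 2.17 and 3.97 FPKM in CFS, 4.73, 4.91 and 4.002 in CSS, 3.98, 3.698 and 4.95 in CFA and 26.2, 22.6 and 42.1 in CSA, a log2 fold change of 2.78 ± 0.31 (SE, adjusted p = 4.54e-05). Neither overlapped between CSA and the other groups. Lgals3bp, a secreted glycoprotein, rose from 18.7 ± 2.73 to 129.9 ± 28.6 FPKM, and Ifi27l2a, among the most abundant of the 48, from 87.1 ± 37.7 to 436 ± 191 FPKM. Psmb8, a catalytic subunit of the immunoproteasome, changed by 2.42 ± 0.33 (SE, adjusted p = 1.67e-04). Ifi35 (chr11:101448407-101458698, plus strand) was not called and measured 12.4, 11.8 and 13.6 FPKM in CFS, 12.6, 13.2 and 13.2 in CSS, 8.77, 11.5 and 8.604 in CFA and 24.7, 29.1 and 9.86 in CSA. CSA mouse 03 fell within the CFA range, and the log2 fold change was 1.002 ± 0.32 (SE, adjusted p = 0.0277), short of the fold limit.

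No interferon-stimulated gene was called between the genotypes under saline. In CSS against CFS, 0 of the 48 genes were called by limma, beside 0.00681% of all tested genes called higher and 0.00681% called lower, and 0 were called without the fold limit (0.00681% higher and 0.0136% lower of tested genes). At an unadjusted p under 0.05 there were 2 genes of 48, Isg20 and Ifi205, beside 6.3% of all tested genes. The median log2 fold change was 0.083, beside 0.013 over all tested genes, and 29 of 48 genes had a positive sign. With 1 mouse left out this median ran from -0.10 (without CFS mouse 69) to 0.16 (without CFS mouse 68), so its sign rested on single mice, and it was 0.039 without CSS mouse 55. Ifi205 was the lowest in CSS against CFS, at -1.57 ± 0.71 (SE, adjusted p = 0.79), and measured 2.84, 1.87 and 2.87 FPKM in CFS and 1.03, 0.865 and 0.506 FPKM in CSS, without overlap. Psmb8 was the highest, at 0.57 ± 0.33 (SE, adjusted p = 0.915). Isg20 differed by -0.36 ± 0.16 (SE, adjusted p = 0.79). A p that misses the threshold does not show that the 2 saline groups were alike.

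Ang II in control mice was also without a call with all mice included. Without CFA mouse 74, Ifitm6 was called higher (log2 fold change 1.61, adjusted p = 0.0306 by limma). In CFA against CFS, 0 of 48 genes were called, beside 0.0204% of tested genes called higher and 0.00681% lower, 0 were called without the fold limit (0.0273% and 0.00681% of tested genes), and 1 gene, Ifit1bl1, reached an unadjusted p under 0.05, beside 9.42% of tested genes. The median log2 fold change was 0.14, beside -0.0012 over all tested genes, and 34 of 48 had a positive sign. With 1 mouse left out this median ran from -0.042 (without CFA mouse 72) to 0.38 (without CFA mouse 71), so its sign also rested on single mice, and it was 0.31 without CFS mouse 68 and 0.0038 without CFS mouse 69. Ifit1bl1 differed by 1.81 ± 0.57 (SE, adjusted p = 0.308) and was the only one of the 48 above a log2 fold change of 1.5, and Ifi205 was at the other end with -1.12 ± 0.71 (SE, adjusted p = 0.703). Mx1 differed by 1.40 ± 1.02 (SE, adjusted p = 0.78) and overlapped between the groups, with CFA mouse 72 alone above the CFS range.

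In deleted mice Ang II raised the genes. In CSA against CSS, 45 of 48 genes were called higher and 0 lower, beside 10.9% and 9.36% of tested genes, and log2 fold changes had a median of 3.62 and ran from 0.40 to 6.44. The 3 genes not called, Ifitm2, Ifi35 and Irf1, were those not called in CSA against CFA. This comparison shares its CSA mice with the one above, so the 2 counts are not independent. Of the 40 genes that passed the filter without CSA, 37 were called higher (5.83% of such genes). The largest difference was that of Mx1 (6.44 ± 1.02 SE, adjusted p = 3.79e-04), followed by Ifit1bl1 (6.40 ± 0.57 SE, adjusted p = 7.30e-06) and Oas3 (5.92 ± 0.53 SE, adjusted p = 7.30e-06). These 3 genes passed the filter through the CSA libraries only, and Irf7 had the largest difference among the 40 others (5.58 ± 0.49 SE, adjusted p = 6.84e-06). Cell markers moved in CSA against CSS too. Called higher were 9 of 10 macrophage and monocyte, 9 of 9 tested neutrophil, 8 of 8 T cell and 3 of 7 fibroblast markers. All 8 smooth muscle markers were called lower. The part of these cells in the change was not tested.

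The interaction term, (CSA - CFA) - (CSS - CFS), tests whether the genotype difference under Ang II differs from that under saline. It was called positive for 45 of 48 genes and negative for 0, beside 7.89% and 7.31% of tested genes, with a median of 3.32 on the log2 scale. Of the 40 genes that passed the filter without CSA it was called positive for 37 (4.44% of such genes). With the fold limit inside the test (limma treat) it was called for 21 of the 48. The largest values were those of Oas1g (5.89 ± 0.77 SE, adjusted p = 3.74e-04), Zbp1 (5.64 ± 0.60 SE, adjusted p = 1.22e-04) and Irf7 (5.56 ± 0.70 SE, adjusted p = 3.07e-04), the first pair of which passed the filter through the CSA libraries only. Irf1 had an interaction of 0.97 ± 0.26 (SE, adjusted p = 0.0184), past the adjusted p and short of the fold limit. Ifi35 (0.95 ± 0.45 SE, adjusted p = 0.151) and Ifitm2 (0.49 ± 0.29 SE, adjusted p = 0.261) passed neither limit. The interaction of Mx1 (5.04 ± 1.44 SE, adjusted p = 0.0241) was called with all mice and lost its call without CFS mouse 68, CSS mouse 54, CFA mouse 71 or CFA mouse 74, where adjusted p was 0.0585 to 0.0611 and the value 4.29 to 4.74.

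**Figure D2:**
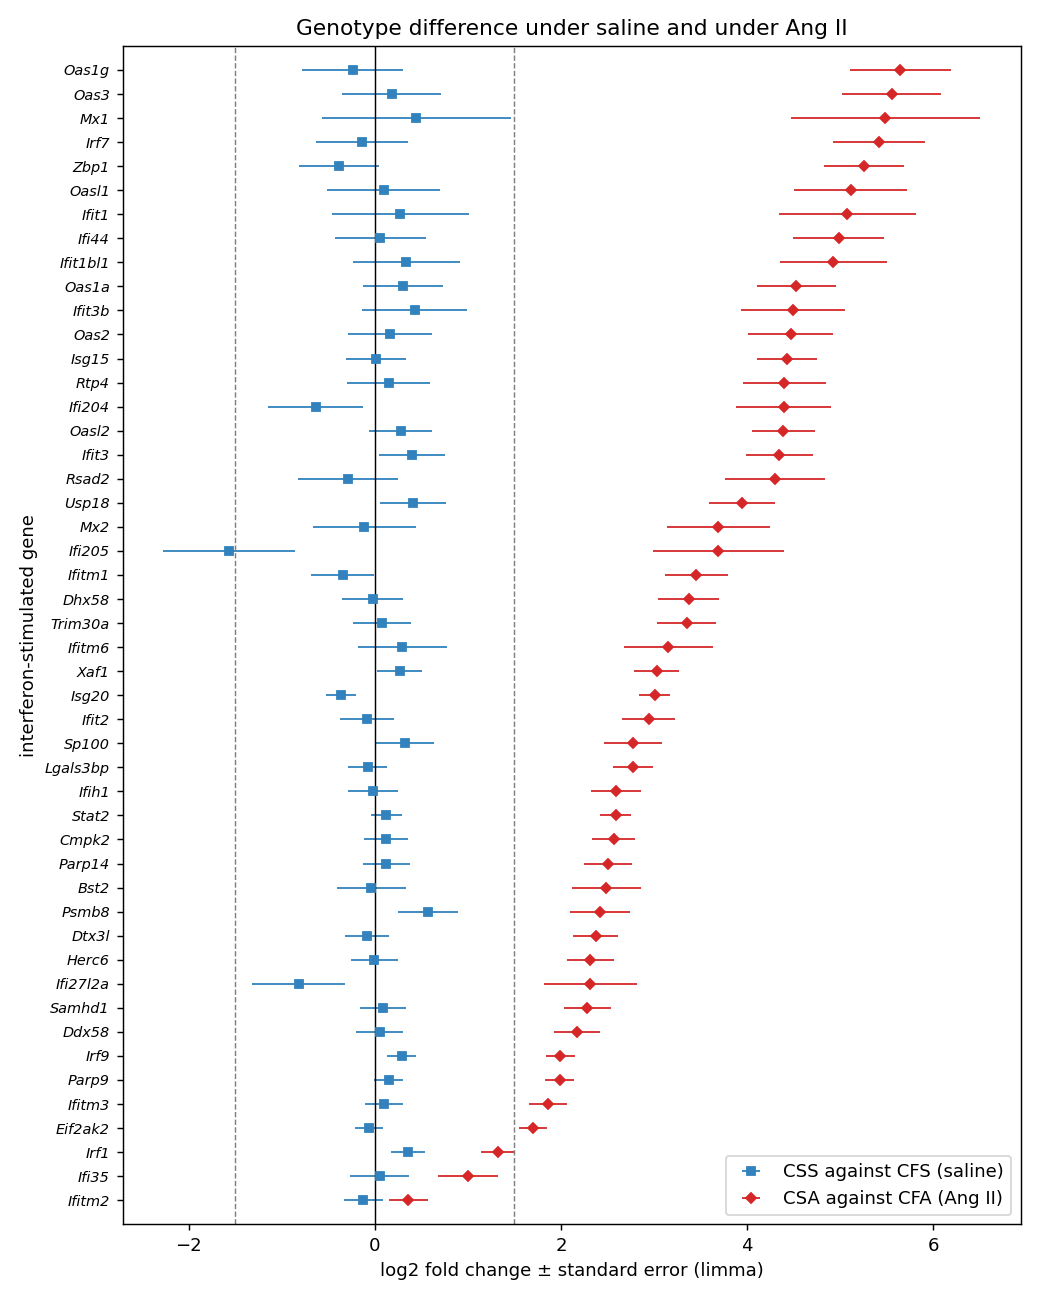
Log2 fold change ± standard error (limma, 3 mice per group) of each of the 48 interferon-stimulated genes for CSS against CFS (squares, saline) and CSA against CFA (diamonds, Ang II), ordered by the latter, with dashed lines at the fold limits of -1.5 and 1.5. The saline values run from -1.57 to 0.57 and the Ang II values from 0.36 to 5.65, and only the Ang II values of Irf1, Ifi35 and Ifitm2 lie left of the upper limit.

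Single mice differed within groups in the same way across many of the genes. CFA mouse 72 had the highest value of its group for 42 of 48 genes, whereas it had the highest value for 37.1% of all tested genes. Its median difference from the CFS mean was 0.76 on the log2 scale, against -0.13 and 0.028 in CFA mice 71 and 74. The summed level of the 10 macrophage and monocyte markers was 467 FPKM in that mouse and 255 and 237 FPKM in the others. Without CFA mouse 72 the median log2 fold change of CFA against CFS was -0.042 and that of CSA against CFA was 3.54. CFS mouse 69, the library with low endothelial markers, had the lowest value of its group for 38 of 48 genes (31.8% of tested genes), and a median difference from the CFS mean of -0.35. The CSS mice differed little, with medians of -0.011, 0.12 and 0.076. The CSA mice had medians of 3.17, 3.11 and 3.85, all far above CFA mouse 72.

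**Figure D3:**
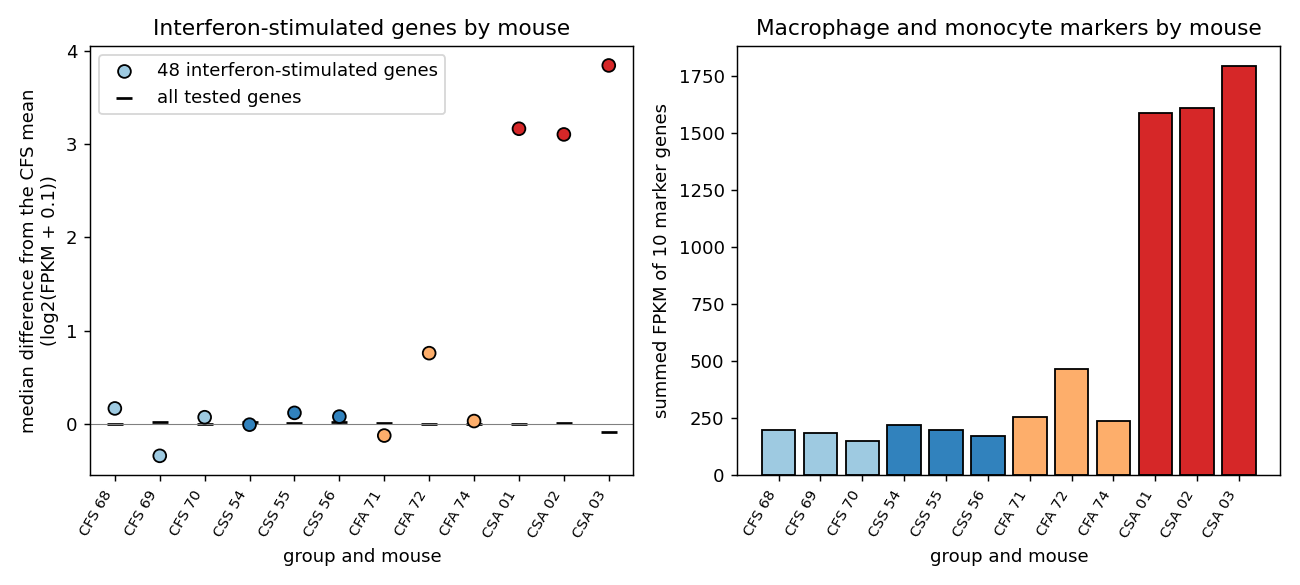
Left, the median over the 48 interferon-stimulated genes of the difference from the CFS mean on the log2(FPKM + 0.1) scale for each mouse (circles), with the same median over all tested genes (dashes). Right, the summed FPKM of 10 macrophage and monocyte markers in each mouse, as bars from 0. CFA mouse 72 has the highest value outside CSA in both panels, 0.76 and 467 FPKM.

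The libraries of the CSA group did not give the 48 genes in the same proportions. CSA mouse 03 was above both other mice for 28 genes, below both for 16 and between them for 4. The log2 difference of mouse 03 from the mean of mice 01 and 02 fell with the G and C content of the longest transcript, with a Spearman correlation of -0.83 over the 48 genes and -0.64 over 14407 tested genes. With the length of the merged exons of a gene the correlations were 0.57 and 0.24. These are correlations across genes that share the same 3 libraries. The genes above both mice had a median G and C content of 45.9% and the genes below both 53.4%. Ifi205, with the lowest content (36.1%), was 1.97 above, and Bst2 (55.3%) was 1.64 below on the log2 scale. Ifi35, at 54.1%, was 1.43 below. Without CSA mouse 03 the count of genes called higher in CSA against CFA was still 45, and the median log2 fold change was 3.03.

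**Figure D4:**
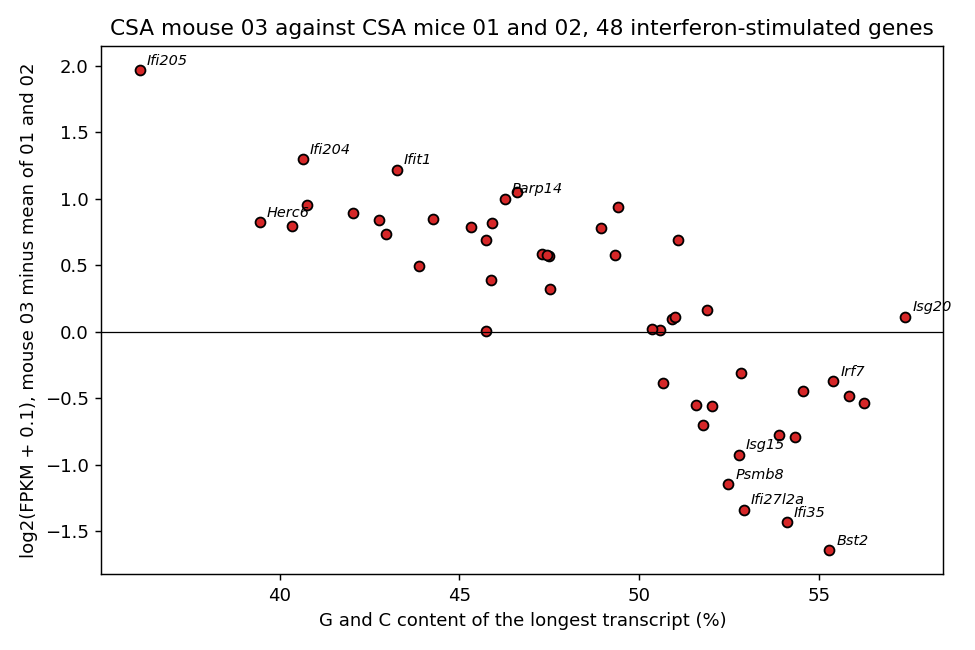
Difference of CSA mouse 03 from the mean of CSA mice 01 and 02 (log2(FPKM + 0.1), vertical axis) against the G and C content of the longest transcript in percent (horizontal axis), 1 point for each of the 48 interferon-stimulated genes. Points fall from the upper left to the lower right, with Ifi205 at 36.1% and 1.97 and Bst2 at 55.3% and -1.64.

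The genes that carry the signal to the 48 targets were followed in lists by role. Of 21 interferon ligand genes, none reached the level for testing and 14 were listed at 0 in all 12 libraries. Ifnb1, the interferon-β gene, measured 0.131 FPKM in CSA mouse 01 and 0.189 FPKM in CSA mouse 02, which stood for 2 and 3 fragments, and was listed at 0 in the 10 other libraries. Ifng, the interferon-γ gene, measured 0.418, 0.291 and 0.454 FPKM in CSA (11, 8 and 9 fragments) and 0.179 FPKM in CFS mouse 70 (4 fragments), and was listed at 0 in the 8 others. Ifnb1 and Ifng were thus seen in CSA in more libraries than elsewhere, at few fragments. Ifna4 and Ifnz were seen in CSA mouse 02 (2 and 1 fragments), Ifna5 and Ifnab in CSA mouse 01 (1 and 2), Ifna2 in CSS mouse 56 (1) and Ifnz also in CSS mouse 55 (1). No ligand passed the filter of 1 FPKM in 3 libraries. In the fit with no filter, which held 7 ligands, Ifng passed the adjusted p in CSA against CFA (limma, adjusted p = 0.00176) and Ifnb1 did not (adjusted p = 0.0628). Both were listed at 0 in all CFA mice, so no fold is given.

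Of 6 receptor genes 5 were tested and 1 was called higher in CSA against CFA, although 4 passed without the fold limit. Over all tested genes 8.95% were called higher, and 19.5% without the fold limit. Ifnar1 measured 9.03, 9.71 and 9.02 FPKM in CFS, 10.5, 10.03 and 10.004 in CSS, 10.1, 10.9 and 10.02 in CFA and 25.03, 21.96 and 26.7 in CSA, a log2 fold change of 1.24 ± 0.11 (SE, adjusted p = 8.19e-06). Ifnar2 measured 7.59, 7.79 and 8.83 FPKM in CFS, 9.15, 9.09 and 8.35 in CSS, 9.35, 9.74 and 8.84 in CFA and 28.3, 26.1 and 24.8 in CSA, a log2 fold change of 1.49 ± 0.11 (SE, adjusted p = 2.84e-06) that lay just under the fold limit. Both chains of the type I receptor were higher in every CSA mouse than in any other. For interferon-γ, Ifngr1 measured 40.2, 25.3 and 40.1 FPKM in CFS, 41.2, 34.1 and 31.98 in CSS, 35.5, 35.7 and 38.8 in CFA and 60.9, 62.2 and 57.5 in CSA, a log2 fold change of 0.71 ± 0.18 (SE, adjusted p = 0.0078). Ifngr2 measured 20.6, 18.6 and 14.04 FPKM in CFS, 22.1, 23.1 and 26.9 in CSS, 28.4, 25.1 and 19.7 in CFA and 31.2, 28.98 and 24.1 in CSA, a log2 fold change of 0.21 ± 0.18 (SE, adjusted p = 0.391). The Ifngr1 values of CSA exceeded all others and those of Ifngr2 overlapped with the rest. Il10rb, a chain shared by the receptors of interferon-λ and interleukin-10 family cytokines, measured 4.76, 4.099 and 4.54 FPKM in CFS, 5.85, 5.09 and 4.86 in CSS, 4.73, 5.48 and 5.698 in CFA and 16.8, 16.8 and 17.3 in CSA and was called, at 1.66 ± 0.12 (SE, adjusted p = 2.78e-06). Ifnlr1, the specific chain of the interferon-λ receptor, was not tested and measured 0.285, 0.665 and 0.222 FPKM in CFS, 0.708, 0.3097 and 0.835 in CSS, 0.867, 0.237 and 0.508 in CFA and 0.777, 0.575 and 0.499 in CSA, with overlapping groups.

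Of the JAK and STAT genes described here, Jak1, Jak2 and Stat3 passed the adjusted p without the fold limit and none of them passed that limit. Without the fold limit 19.5% of all tested genes were called higher in CSA against CFA. Jak1 measured 24.4, 23.6 and 24.03 FPKM in CFS, 24.1, 21.3 and 19.7 in CSS, 20.9, 23.3 and 22.6 in CFA and 31.6, 28.3 and 37.7 in CSA, a log2 fold change of 0.54 ± 0.13 (SE, adjusted p = 0.00603). Jak2 measured 17.4, 13.9 and 14.4 FPKM in CFS, 15.2, 12.96 and 14.8 in CSS, 14.7, 16.5 and 12.9 in CFA and 28.7, 27.3 and 52.1 in CSA, a log2 fold change of 1.23 ± 0.22 (SE, adjusted p = 0.00121). Stat3, which serves interleukin-6 type cytokines, measured 21.8, 19.3 and 22.9 FPKM in CFS, 24.9, 25.7 and 22.4 in CSS, 16.5, 19.2 and 17.7 in CFA and 28.8, 24.9 and 24.6 in CSA, a log2 fold change of 0.55 ± 0.12 (SE, adjusted p = 0.00362). The CSA values of Jak1 and Jak2 exceeded all others, and those of Stat3 overlapped with CSS. Tyk2, the partner of JAK1 at the type I receptor, measured 5.72, 5.13 and 5.14 FPKM in CFS, 7.47, 6.44 and 8.33 in CSS, 5.88, 6.44 and 7.61 in CFA and 11.02, 10.05 and 4.72 in CSA, a log2 fold change of 0.28 ± 0.27 (SE, adjusted p = 0.428), where CSA mouse 03 was the lowest of all 12.

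Of 12 negative regulators 11 were tested, and 3 were called higher and 0 lower, beside 8.95% and 8.27% of all tested genes. Ptpn6 (SHP-1), a phosphatase of blood cells, measured 2.36, 2.54 and 2.46 FPKM in CFS, 3.802, 3.95 and 2.92 in CSS, 3.87, 7.13 and 3.33 in CFA and 60.7, 59.1 and 55.8 in CSA, a log2 fold change of 3.67 ± 0.24 (SE, adjusted p = 1.49e-06). Socs3, an inhibitor of cytokine receptors, measured 3.71, 5.38 and 3.13 FPKM in CFS, 5.16, 7.02 and 4.45 in CSS, 4.76, 8.39 and 2.82 in CFA and 81.04, 60.9 and 17.6 in CSA, a log2 fold change of 3.17 ± 0.53 (SE, adjusted p = 7.14e-04). Both separated CSA from the rest, although CSA mouse 03 had far less Socs3 than mice 01 and 02. Nlrc5, the activator of class I antigen presentation that is also held to limit interferon induction, changed by 2.90 ± 0.25 (SE, adjusted p = 9.51e-06). Adar, which edits double-stranded RNA, was at 1.45 ± 0.15 (SE, adjusted p = 2.94e-05), short of the fold limit. Trex1, the untested gene, was listed at 0 in all 12 libraries. The annotation used for the counts is not known, so this is not read as absence of its RNA. Of 14 sensors and adaptors upstream of interferon, 6 were called higher and 0 lower, beside the same shares of all tested genes. Irf8, a factor of myeloid cells, measured 0.483, 0.796 and 0.879 FPKM in CFS, 0.831, 1.08 and 0.762 in CSS, 1.34, 2.93 and 1.16 in CFA and 17.7, 17.2 and 8.85 in CSA, a log2 fold change of 2.99 ± 0.37 (SE, adjusted p = 9.97e-05). Irf5, another factor of myeloid cells, measured 1.92, 1.88 and 2.395 FPKM in CFS, 3.205, 2.62 and 2.48 in CSS, 3.21, 7.41 and 3.09 in CFA and 44.1, 41.2 and 14.6 in CSA, a log2 fold change of 2.80 ± 0.42 (SE, adjusted p = 3.28e-04). Both were higher in every CSA mouse and both were highest outside CSA in CFA mouse 72. The DNA sensor Cgas changed by 2.38 ± 0.34 (SE, adjusted p = 2.56e-04) and its partner Sting1 by 2.42 ± 0.23 (SE, adjusted p = 1.67e-05). The adaptor Mavs of the RNA sensors was at -0.55 ± 0.12 (SE, adjusted p = 0.00439), short of the fold limit, and Irf3, which first induces interferon-β, was at 0.041 ± 0.24 (SE, adjusted p = 0.91).

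Relatives of the 48 genes gave a less uniform picture. Of 37 relatives in the list 36 were in the table and 27 were tested. Of these, 17 were called higher and 2 lower, beside 8.95% and 8.27% of all tested genes. Ifi213, a p200 gene (chr1:173566283-173599274, minus strand), measured 0.324, 0.164 and 0.161 FPKM in CFS, 0.205, 0.371 and 0.255 in CSS, 0.101, 0.958 and 0.0759 in CFA and 15.9, 15.5 and 26.8 in CSA, a log2 fold change of 5.82 ± 0.60 (SE, adjusted p = 2.65e-05). Ifi209, a neighbour in the same family (chr1:173630917-173647928, plus strand), measured 0.8999, 0.799 and 0.703 FPKM in CFS, 0.986, 1.19 and 1.15 in CSS, 0.531, 4.61 and 0.519 in CFA and 39.1, 42.8 and 89.1 in CSA, a log2 fold change of 5.44 ± 0.65 (SE, adjusted p = 7.17e-05). Both were highest outside CSA in CFA mouse 72, as were many of the 48. Herc3, a ubiquitin ligase, was called lower (-1.61 ± 0.16 SE, adjusted p = 2.14e-05). Ifi27, a relative of Ifi27l2a, was at -0.32 ± 0.25 (SE, adjusted p = 0.336) and was not called.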

How the data were processed

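Total RNA from abdominal aortas (12 mice, 4 groups of 3) was sequenced as paired-end libraries. The deposited values are FPKM per gene and mouse. The submitters' processing notes name HISAT2 2.0.5, StringTie 1.3.3b, featureCounts 1.5.0-p3 and mm10, with no role stated. The study called genes with DEG-Seq. The annotation is not given in the sources used here, nor is the scaling between libraries. The median ratio of each library to the mean of all was the same, 1.01, so the values already stood on a median-of-ratios scale. Applying that scaling again changes nothing. Steps in the FPKM values gave fragments per gene, with 98.0% to 98.5% of values under 100 fragments whole within 0.05, and no fragment count was tested.

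Symbols, positions and transcripts came from GENCODE (GRCm38, the same build as mm10). Of 55092 features, 54409 had a symbol. Promoters came from RefSeq.

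Genes with at least 1 FPKM in at least 3 libraries were fitted with limma 3.58.1 in R 4.3.3 on log2(FPKM + 0.1), with 1 coefficient per group over 12 libraries, trend and robust settings, a two-sided test and Benjamini-Hochberg adjustment over 14676 genes. A call needed an adjusted p under 0.05 and a log2 fold change beyond 1.5 in size, the fold limit of the study. The code was tested on simulated data. Tables were made with Python 3.11.15 and pandas 2.3.3. The members, lists and tests were chosen with earlier results of these data known, so lists were described by counts and medians without a test. Every mouse's values are given for the 2 genes of each role with the largest absolute log2 fold change in CSA against CFA, the transcription factors, Ddx58, Ifih1 and Dhx58, and genes not called. They are also given for each ligand above 0, receptor and JAK or STAT gene, and for the 2 largest changes of each other list. A few genes of the lists outside the 48 are not reported here. Alternatives were the pseudocount, filter, scaling, weights, fold limit, groups fitted and each mouse left out. The precision is that of 3 mice per group.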

Additional observations from a re-analysis of the deposited data

Results flagged for a closer look

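The 45 genes below stood out because their genotype difference under Ang II differed from that under saline by the interaction term of limma. With the fold limit inside the test (limma treat) 21 of them were called. Values are the interaction on the log2(FPKM + 0.1) scale, over 3 mice per group. In the IFIT family it was 4.80 for Ifit1, 3.03 for Ifit2, 3.95 for Ifit3, 4.06 for Ifit3b and 4.59 for Ifit1bl1. Among the OAS family it was 4.23 for Oas1a, 5.89 for Oas1g, 4.31 for Oas2, 5.37 for Oas3, 5.02 for Oasl1 and 4.11 for Oasl2. In the blocks to viral growth it was 5.04 for Mx1, 3.81 for Mx2, 4.59 for Rsad2, 2.44 for Cmpk2, 2.52 for Bst2, 1.77 for Eif2ak2, 2.19 for Samhd1, 3.37 for Isg20, 4.26 for Rtp4 and 4.93 for Ifi44. Among the IFITM family it was 3.80 for Ifitm1, 1.76 for Ifitm3 and 2.86 for Ifitm6. In the ISG15, ubiquitin and ADP-ribose genes it was 4.42 for Isg15, 3.53 for Usp18, 2.32 for Herc6, 2.46 for Dtx3l, 1.84 for Parp9, 2.38 for Parp14 and 3.28 for Trim30a. Among the transcription factors it was 5.56 for Irf7, 1.71 for Irf9 and 2.46 for Stat2. In the sensors it was 2.12 for Ddx58, 2.61 for Ifih1, 3.40 for Dhx58, 5.64 for Zbp1, 5.03 for Ifi204 and 5.26 for Ifi205. Among the remaining genes it was 2.76 for Xaf1, 3.13 for Ifi27l2a, 2.45 for Sp100, 2.85 for Lgals3bp and 1.85 for Psmb8. All 3 CSA mice lay above the 9 others for each of these genes. Of these genes, 8 passed the filter on low values through the CSA libraries only, and so had to be high in CSA. The weakest of these calls was that of Mx1, which was lost without CFS mouse 68, CSS mouse 54, CFA mouse 71 or CFA mouse 74.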

How the results depend on the processing

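No paired analysis was possible because the mouse numbers name different mice and no number is shared between groups. A pseudocount of 1, scaling to library totals, no filter on low values, plain eBayes (no trend, not robust) and fitting only the groups compared left 45 genes called higher in CSA against CFA. Median-of-ratios scaling had the same factor in every library and so tested nothing. Of the 48 genes, 35 kept their call or its absence under every alternative in that comparison. With the fold limit inside the test (limma treat), Bst2, Eif2ak2, Samhd1, Ifitm3, Herc6, Parp9, Irf9, Ddx58, Ifi205, Ifi27l2a and Psmb8 lost the call, and the interaction was called for 21 genes in place of 45. With array weights 46 genes were called in CSA against CFA, Ifi35 (log2 fold change 1.55) among them. The median log2 fold change of CSA against CSS was 3.07 with a pseudocount of 1 and 3.34 over the 42 genes with a mean of at least 5 FPKM, where it was 3.62 otherwise. With each mouse left out in turn, genes called higher numbered 45 in CSA against CFA, 45 in CSA against CSS, 44 to 45 in the interaction, 0 in CSS against CFS and 0 to 1 in CFA against CFS. That 1 was Ifitm6 without CFA mouse 74 (log2 fold change 1.61, adjusted p = 0.0306 by limma). No gene's called direction reversed under the alternatives run. The medians over the 48 genes of the 2 comparisons without calls did change sign. That of CSS against CFS ran from -0.10 to 0.16 with 1 mouse left out, and that of CFA against CFS from -0.042 to 0.38, with -0.026 under array weights. Ligands lay at 0 to 11 fragments, so depth limits their levels.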
